A study of Mus musculus with 9 samples.

Results

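The genes described here are the guanylate-binding proteins Gbp2, Gbp3, Gbp5, Gbp7, Gbp8 and Gbp9 and the immunity-related GTPases Igtp, Irgm1, Irgm2 and Iigp1, 10 members in all, chosen by gene symbol. Of these, 9 had a probe set on the array, against 19505 named genes in the whole series, and Gbp5 had none. Each of the 9 had a single probe set. Expression was measured in macrophages grown from bone marrow of wildtype C57BL/6 mice and polarised with interleukin-4 (IL-4), on 9 arrays. All cultures were kept for 7 days with macrophage colony-stimulating factor (M-CSF) in medium with 10% serum, and were then exposed for 24 h to 20 ng/ml IL-4. Arrays fell into 3 groups of 3 that differed in lipocalin 2 (LCN2), a secreted protein that binds bacterial iron carriers. Controls received vehicle, 1 group received recombinant mouse LCN2 at 150 ng/ml from day 0, and 1 group received LCN2 from day 7, together with IL-4, at a dose that the labels do not give. The M-CSF concentration is given as 10 ng/ml in one place of the labels and as 20 ng/ml in another. Each group's arrays are titled 1, 2 and 3. The labels do not say whether these came from separate mice or cultures, so the p-values measure only the spread between these arrays, which may be technical.

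Guanylate-binding proteins and immunity-related GTPases are families of large GTP-hydrolysing proteins that macrophages make in response to interferon gamma, and in part to type I interferons. They assemble on vacuoles that hold bacteria or protozoa, open or mark them, and help caspases of the inflammasome reach microbial products. Among the immunity-related GTPases, Irgm1, Irgm2 and Igtp (also called Irgm3) sit on the cell's own membranes and hold effector members such as Iigp1 inactive there. The upstream signal runs from the interferon gamma receptor (Ifngr1, Ifngr2) through the kinases Jak1 and Jak2, and Irf1 then binds interferon-response elements in target promoters. IL-4 polarisation drives a different transcription programme, so these genes were measured in cells to which the labels add no interferon.

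Promoter sequences show features of the members that the arrays do not measure, and are printed because the interferon-response element is the feature the family is known for. They come from RefSeq on the GRCm38.p6 assembly. A window of 250 bases before the annotated start was searched for 7 members, 6 of them with a probe set. Gbp8 and Gbp9 had no entry. Iigp1 was left out of this search, so its promoter was not examined. Gbp3 had 2 windows, which makes 8. The last 120 bases before the start are given for Gbp2 (chr3:142620543-142620662, plus strand), Gbp3 (chr3:142559924-142560043, plus strand), Gbp7 (chr3:142530216-142530335, plus strand), Irgm1 (chr11:48871421-48871540, minus strand), Igtp (chr11:58199436-58199555, plus strand) and Irgm2 (chr11:58214857-58214976, plus strand), read 5′ to 3′ on the gene's strand. Capitals mark the core of an interferon-response element, which is GAAA, any 2 bases and GAAA again (TTTC, any 2 bases and TTTC where it lies on the other strand), and TTCNNNGAA, the core of a gamma-activated element, searched on both strands. Overlapping matches run together.
Gbp2: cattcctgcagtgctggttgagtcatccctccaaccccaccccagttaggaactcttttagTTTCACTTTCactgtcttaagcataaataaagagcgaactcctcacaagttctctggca
Gbp3: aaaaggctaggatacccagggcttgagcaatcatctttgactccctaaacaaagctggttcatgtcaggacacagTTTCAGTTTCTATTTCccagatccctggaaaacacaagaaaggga
Gbp7: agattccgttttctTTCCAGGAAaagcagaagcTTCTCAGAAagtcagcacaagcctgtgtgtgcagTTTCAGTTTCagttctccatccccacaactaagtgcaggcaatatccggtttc
Irgm1: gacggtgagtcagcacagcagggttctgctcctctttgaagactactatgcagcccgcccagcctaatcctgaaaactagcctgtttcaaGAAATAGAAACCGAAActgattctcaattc
Igtp: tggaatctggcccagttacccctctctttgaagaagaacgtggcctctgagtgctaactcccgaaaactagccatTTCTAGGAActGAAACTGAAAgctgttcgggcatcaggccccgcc
Irgm2: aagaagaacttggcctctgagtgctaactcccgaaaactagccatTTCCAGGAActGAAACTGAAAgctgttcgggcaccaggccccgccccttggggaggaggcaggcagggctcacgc
All 6 printed stretches of 120 bases held the interferon-response core on 1 of the strands. Counted by window and over the full 250 bases searched, the core was present in 2.98% of the 32851 promoter windows in the table. Its first base lay 59 bases before the start in Gbp2, 53 in Gbp7, 34 in Igtp and 64 in Irgm2. Gbp3 had 2 overlapping copies, with first bases at 45 and 39, and Irgm1 had 2 overlapping copies, at 30 and 24. The second window of Gbp3 held 0 copies in its 250 bases. TTCNNNGAA, present in 7.02% of all windows, was found 2 times in Gbp7 and 1 time each in Igtp and Irgm2, and these letters were not in the windows of Gbp2, Gbp3 or Irgm1. Igtp and Irgm2, neighbours on chromosome 11, were nearly the same around these elements. With the motifs aligned, 68 of 70 bases around them were identical, against 134 of 220 over the whole aligned length. Gbp5, which the array did not measure, held 1 copy of the interferon-response core further upstream, at 165 bases. A match is a description of letters and not of binding.

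The cells were checked against their label first. The IL-4 targets Arg1 (mean 11.67 on the log2 scale over 9 arrays), Retnla (12.18), Chil3 (11.50) and Mrc1 (11.85) were all bright, and 14 of 14 IL-4 target genes and 7 of 7 macrophage markers lay above the median probe-set level. Ifng, which encodes interferon gamma, and Ifnb1, which encodes interferon beta, lay below that median at 3.67 and 4.77. Of all 10 interferon genes with a probe set, 3 lay above it, Ifna1 (5.69), Ifnl2 (6.31) and Ifnl3 (6.49), named after their values were seen. Of the natural killer and T cell markers, the cell types that make interferon gamma, 14 of 15 lay below it too. The B cell markers were below it in 5 of 5 cases and the dendritic cell markers in 7 of 10. Neutrophil and monocyte markers were mostly above it, in 7 of 9 and 6 of 7 cases, with the granule protein gene Ngp at 10.01. Chil3 is counted among the monocyte markers as well as the IL-4 targets. The receptor chains Ifngr1 (10.40) and Ifngr2 (9.68), the kinases Jak1 (8.15) and Jak2 (9.46) and the transcription factors Irf1 (8.50) and Irf8 (7.62) were above it. Nlrc5 had no probe set.

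Values are log2 intensities after robust multi-array averaging (RMA), so a difference of 1 is a doubling. A gene was tested where its mean over the 9 arrays reached the median of all probe-set means, 5.66, which left 10042 genes. Gbp2, Gbp7, Igtp, Irgm1 and Irgm2 passed. Gbp3, Gbp8, Gbp9 and Iigp1 were dim, and their differences come from a fit without that filter. Gbp2, at a mean of 5.75, was just inside and Gbp3, at 5.57, just outside. The mean level of Gbp2 on the arrays titled 2 and 3 was 4.78 and 5.49, so that it passed only through the arrays titled 1.

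Among the guanylate-binding proteins, Gbp2, which is recruited to pathogen vacuoles, spanned the widest range of the members, 2.72 log2 units. Its level was 7.08, 5.01 and 5.39 on the vehicle arrays titled 1, 2 and 3. It was 6.98, 4.36 and 5.57 with LCN2 from day 7, and 6.88, 4.98 and 5.52 with LCN2 from day 0. The array titled 1 was the highest of each group, the array titled 2 the lowest, and the groups overlapped fully. Gbp3 was 6.59, 5.21 and 5.49 with vehicle, 5.99, 5.16 and 5.48 with LCN2 from day 7, and 5.85, 5.29 and 5.08 with LCN2 from day 0, again highest on the array titled 1. Gbp8 was 5.58, 5.18 and 5.31 with vehicle, 5.59, 4.70 and 5.19 with LCN2 from day 7, and 5.61, 5.23 and 5.39 with LCN2 from day 0. It had the same order as Gbp2 within every group, over a range of 0.92. Gbp7 was 7.62, 7.27 and 7.18 with vehicle, 7.34, 6.81 and 7.31 with LCN2 from day 7, and 6.83, 7.09 and 7.12 with LCN2 from day 0. Here the array titled 1 was the highest with vehicle and the lowest with LCN2 from day 0. Gbp9 ranged from 4.79 to 6.30, and its highest value came from the LCN2 day 7 array titled 3.

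**Figure D1:**
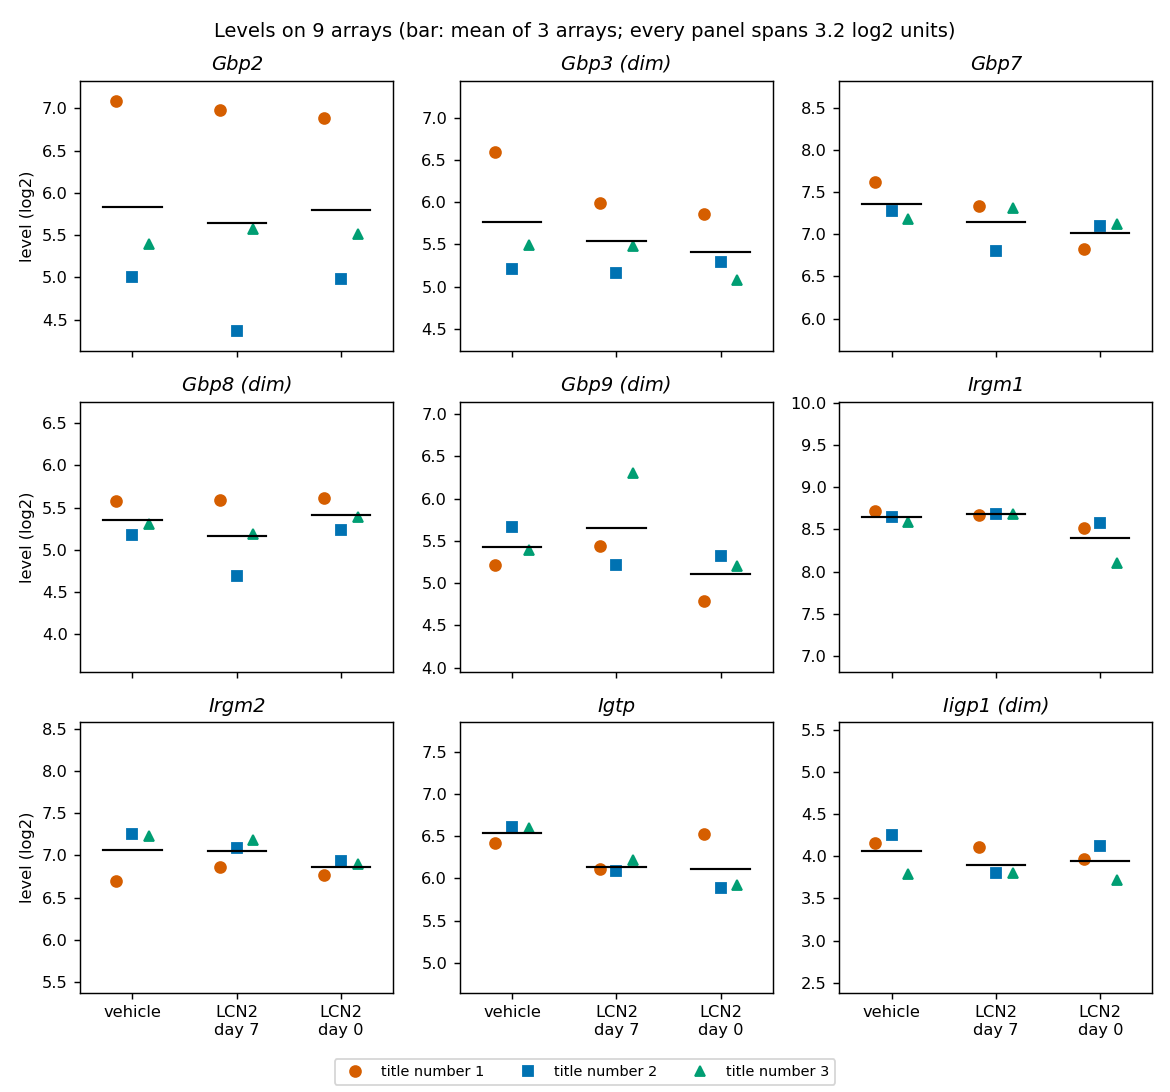
Log2 level of the 9 measured members on each array (y axis, every panel spanning the same number of log2 units) by group (x axis); symbols give the title number and bars the mean of 3 arrays. In Gbp2, Gbp3 and Gbp8 the circles (title number 1) lie above the other symbols in every group, whereas in Irgm2 they lie below them.

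Among the immunity-related GTPases the spread between arrays was smaller. Igtp was 6.42, 6.61 and 6.59 with vehicle, 6.11, 6.09 and 6.22 with LCN2 from day 7, and 6.52, 5.89 and 5.92 with LCN2 from day 0. The LCN2 day 7 arrays were all below the vehicle arrays, and with LCN2 from day 0 the array titled 1 lay within the vehicle range and the other two below it. Irgm1, which is needed for resistance to mycobacteria and protozoa, was 8.72, 8.64 and 8.59 with vehicle, 8.67, 8.68 and 8.68 with LCN2 from day 7, and 8.52, 8.58 and 8.11 with LCN2 from day 0. All 3 LCN2 day 0 values were below all others, the array titled 3 by the most. Irgm2 was 6.70, 7.25 and 7.23 with vehicle, 6.86, 7.09 and 7.19 with LCN2 from day 7, and 6.77, 6.93 and 6.89 with LCN2 from day 0. In each group its lowest value came from the array titled 1. The effector Iigp1 was dim throughout, between 3.72 and 4.25.

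Group and title number took very different shares of each member's variation. The title number accounted for 96.2% of the sum of squares of Gbp2 over the 9 arrays, 77.9% of Gbp3, 70.6% of Gbp8 and 61.1% of Irgm2. For Igtp and Irgm1 the group took the larger share, 54.9% and 50.2%, and for Gbp7 it took 34.7%. The medians over all genes tested were 48.6% for title number and 10.6% for group. These shares are descriptions, with 3 arrays behind each level of either factor.

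The first comparison asks what LCN2 added on day 7 did to IL-4-polarised macrophages. Igtp had the largest difference of the tested members, at -0.40 ± 0.17 log2 (SE, n = 3 arrays a group; 95% interval -0.79 to -0.020), a level 0.756 times that of vehicle. Its 3 LCN2 values lay below the 3 vehicle values, as did those of 1.67% of all genes tested, and the difference within title numbers 1, 2 and 3 was -0.31, -0.52 and -0.38. All 3 were below 0, as in 10.3% of genes. It did not pass the threshold (limma, unadjusted p = 0.0412, adjusted p = 1.00). limma called 0 of 10042 genes (0%) at an adjusted p under 0.05, and 70 genes (0.697%) had an unadjusted p under 0.05. In bulk RNA, fewer cells of a type and less RNA per cell cannot be told apart. The other tested members differed by -0.21 ± 0.18 (Gbp7), -0.19 ± 0.76 (Gbp2), 0.03 ± 0.13 (Irgm1) and -0.01 ± 0.16 (Irgm2). With 95% intervals from -1.90 to 1.53 for Gbp2 and from -0.28 to 0.33 for Irgm1, this fit bounds a change in Irgm1 more tightly than one in Gbp2. With the title number as a block, the SE is 0.16 for Gbp2 and 0.11 for Irgm1. Of the tested members 4 of 5 lay below 0, with a median of -0.19, against 49.1% of all genes and a median of 0.0025. With quantile normalization repeated it was 3 of 5, with a median of -0.011. Of the dim members, Gbp9 differed by 0.23 ± 0.26, Gbp3 by -0.22 ± 0.35, Gbp8 by -0.20 ± 0.22 and Iigp1 by -0.16 ± 0.16.

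The second comparison asks the same of LCN2 present from the start of differentiation. Again 0 of 5 tested members and 0 of 10042 genes (0%) were called by limma, and 142 genes (1.41%) had an unadjusted p under 0.05. Igtp differed by -0.43 ± 0.17 (95% interval -0.81 to -0.046; limma, unadjusted p = 0.032, adjusted p = 0.999). Within the title numbers the difference was 0.10, -0.72 and -0.67, so the array pair titled 1 did not share it. Gbp7 differed by -0.34 ± 0.18 and Irgm1 by -0.25 ± 0.13, with every LCN2 array below every vehicle array in both, as in 3.44% of all genes tested. In Gbp7 most of this came from the pair titled 1 (-0.79, against -0.18 and -0.06), and in Irgm1 from the pair titled 3 (-0.48, against -0.20 and -0.065). Irgm2 differed by -0.19 ± 0.16 and Gbp2 by -0.03 ± 0.76, with a 95% interval from -1.75 to 1.68. All 5 tested members lay below 0, with a median of -0.25, against 54.8% of all genes and a median of -0.015. Of the dim members, Gbp3 differed by -0.36 ± 0.35, Gbp9 by -0.32 ± 0.26, Iigp1 by -0.13 ± 0.16 and Gbp8 by 0.05 ± 0.22.

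The schedules were then set against each other and pooled. Between LCN2 from day 0 and LCN2 from day 7, Irgm1 had the largest difference of the tested members, -0.28 ± 0.13 (95% interval -0.58 to 0.026; limma, adjusted p = 1.00), with all 3 day 0 arrays below all 3 day 7 arrays, as in 2.93% of genes. Of the dim members, Gbp9 had a larger difference, -0.55 ± 0.26, and the groups overlapped. Gbp8 differed by 0.25 ± 0.22, Gbp3 by -0.13 ± 0.35 and Iigp1 by 0.04 ± 0.16. Igtp differed by only -0.03 ± 0.17 between the schedules, with an interval from -0.41 to 0.36, which holds a difference as large as its -0.40 from vehicle. limma called 0 genes (0%) here, with 177 (1.76%) at an unadjusted p under 0.05. With both LCN2 groups averaged and set against vehicle, Igtp was lower by -0.42 ± 0.15 (limma, unadjusted p = 0.0194, adjusted p = 1.00), the 31st lowest difference of the genes tested. Gbp7 differed by -0.28 ± 0.16, and Gbp2, Irgm1 and Irgm2 by -0.10 to -0.11. None was called, and 0 genes (0%) were called in all, with 68 (0.677%) at an unadjusted p under 0.05. The comparisons with vehicle share the vehicle arrays and so are not independent of each other.

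**Figure D2:**
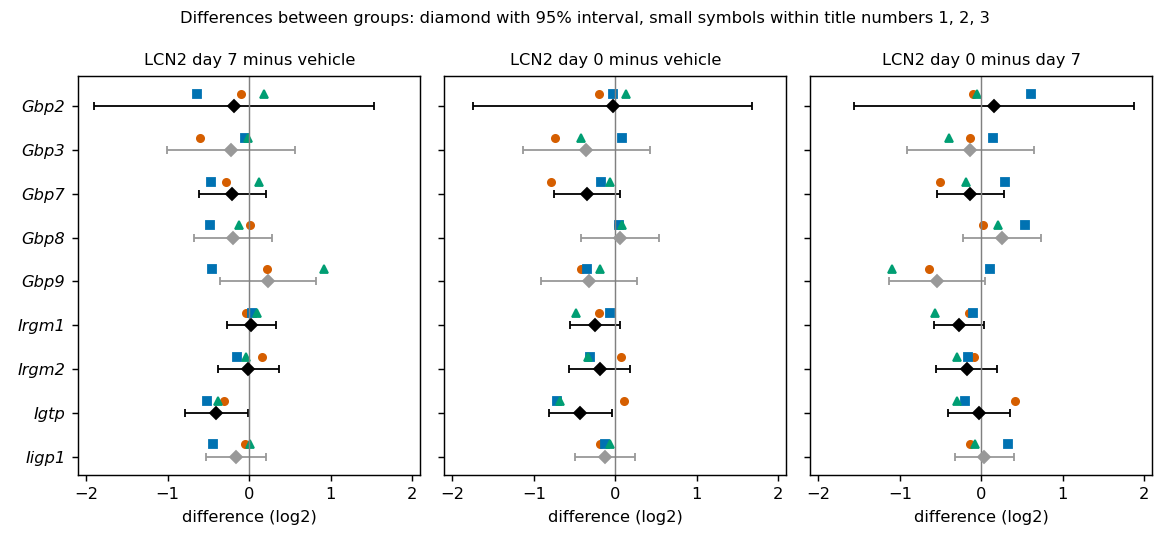
Difference in log2 level (x axis) for each measured member (y axis) in 3 comparisons; diamonds with bars give the limma estimate with its 95% interval (grey for dim members), and small circles, squares and triangles the difference within title numbers 1, 2 and 3. The interval of Igtp lies below 0 in both comparisons with vehicle, and that of Gbp2 spans more than 1 log2 unit to either side of 0.

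The title number was also fitted as a replicate block. Deviations from the group mean correlated between 0.156 and 0.820 in the 9 pairs of arrays with the same number, between -0.754 and -0.346 for numbers 1 and 2, and between -0.721 and -0.552 for numbers 1 and 3. For numbers 2 and 3 they correlated between 0.201 and 0.687, so the arrays titled 1 stood apart and numbers 2 and 3 did not separate from each other. With the number as a block, the SE of the Gbp2 difference between groups fell from 0.76 to 0.16, and that of Igtp moved from 0.17 to 0.16. Still 0 members and 0 genes (0%) were called in any comparison of groups by limma, with 259 to 539 genes (2.58% to 5.37%) at an unadjusted p under 0.05. Without the block that share was 0.677% to 1.76%. The fit without it counts variation with the title number as error, so its p-values are conservative for genes that vary with that number. With the block, limma gave Igtp an unadjusted p of 0.0380 (day 7), 0.0296 (day 0) and 0.0181 (both) against vehicle. It gave Irgm1 0.0401 for day 0 minus day 7. Without the 3 arrays titled 1, an alternative chosen after seeing the data that leaves 2 arrays a group, Igtp differed from vehicle by -0.45 with LCN2 from day 7 and by -0.70 with LCN2 from day 0. It was not called by limma in either case.

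The title number itself separated the members. On arrays titled 1, against the mean of those titled 2 and 3 and with group as a term, Gbp2 was higher by 1.85 ± 0.14 log2, or 3.60-fold (n = 3 against 6 arrays). Since it passed the filter only through these arrays, its call is taken from the fit of all 19505 genes without the filter (limma, adjusted p = 0.000114). Its values of 6.88 to 7.08 lay above all 6 others, as in 7.99% of these 19505 genes. The difference was 1.88 with vehicle, 2.02 with LCN2 from day 7 and 1.64 with LCN2 from day 0. Of the 10042 genes that passed the filter, limma called 33.2% in this comparison, 11% higher and 22.1% lower, so a call alone is common here. With each array centred on its median the split was 17.4% higher and 15.2% lower, and with quantile normalization 15.3% and 16.7%. Irgm2 went the other way, lower by -0.32 ± 0.09 (limma, adjusted p = 0.0314), with all 3 values below the 6 others, as in 23.6% of genes. That call was lost in 9 of 16 alternatives, and over all 16 the limma adjusted p ran from 0.00694 to 0.201. The 9 include leaving out any 1 of the vehicle arrays (-0.21, -0.28 and -0.30 without the arrays titled 1, 2 and 3), or the LCN2 day 7 array titled 1 (-0.34) or 3 (-0.31). It was also lost with arrays centred (-0.22) or quantile-normalized (-0.25), without the filter and with a variance trend. Igtp at 0.13 ± 0.14, Gbp7 at 0.13 ± 0.15 and Irgm1 at 0.09 ± 0.10 were not called.

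In the fit without the filter on dim genes, in which 13.9% of 19505 genes were called and 5.1% higher, Gbp3 was higher on arrays titled 1 by 0.86 ± 0.14 (limma, adjusted p = 0.00429) and Gbp8 by 0.43 ± 0.11 (limma, adjusted p = 0.0318). Their 3 values lay above the 6 others in both, as in 7.99% of those genes. Gbp9 and Iigp1, at -0.37 ± 0.20 and 0.17 ± 0.11, were not called. The members highest on arrays titled 1 were guanylate-binding proteins from chromosomes 3 and 5, while neighbours of each on the same chromosome (Gbp7, Gbp9) did not pass. Between arrays titled 2 and 3, Gbp2 differed again, by -0.71 ± 0.16. Its means there, 4.78 and 5.49, lay below the cut-off of 5.66, which it passed only through the arrays titled 1. It is therefore not ranked among the genes that passed. All 3 arrays titled 2 lay below all 3 titled 3, as in 5.03% of the genes that passed. The share over all 19505 genes was not counted in this direction. The differences within the groups were -0.38, -1.20 and -0.54. limma called 0 genes (0%) in that comparison, with the filter and also over all 19505 genes without it. In the filtered fit Gbp2 was not called (limma, unadjusted p = 0.00223, adjusted p = 1.00), and 310 genes (3.09%) had an unadjusted p under 0.05.

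Related GTPase genes split from Gbp2 too. Of 21 further genes listed, 12 had a probe set and 9 were tested. The list reaches beyond both families, for example to the atlastin Atl3. On arrays titled 1, 5 of 9 were called lower and 0 higher (55.6% and 0%, against 22.1% and 11% of all genes). The median was -0.47, against -0.064 over all genes. With arrays centred or quantile-normalized 4 of 9 were called lower, against 15.2% and 16.7% of all genes. The 5 were Gm5431 (-0.60 ± 0.08), 9930111J21Rik1 (-0.52 ± 0.09), 9930111J21Rik2 (-0.51 ± 0.08), Gm12250 (-0.47 ± 0.12) and Atl3 (-0.38 ± 0.11), an atlastin that shapes the endoplasmic reticulum. Gm12250 and Atl3 complete the count and are named after their values were seen. Gm4951 had a larger difference, -0.69 ± 0.27, but was not called (limma, adjusted p = 0.0797). Gm5431, 9930111J21Rik1, 9930111J21Rik2 and Gm12250 lie between Irgm1 and Igtp on chromosome 11 in RefSeq order. 9930111J21Rik1 and 9930111J21Rik2 are close relatives whose probes may share targets, so their values are uncertain as separate measurements. Gm12250, also known as Irgb10, was 7.54, 7.95 and 7.96 with vehicle, 6.89, 7.37 and 7.85 with LCN2 from day 7, and 7.34, 7.64 and 7.58 with LCN2 from day 0. With LCN2 from day 7 it differed from vehicle by -0.44 ± 0.23, and with LCN2 from day 0 by -0.30 ± 0.23, neither past the threshold. In the latter comparison all 9 tested genes of this list lay below 0 (8 with arrays centred), against 54.8% of all genes. Their median was -0.095, against -0.015 over all genes.

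**Figure D3:**
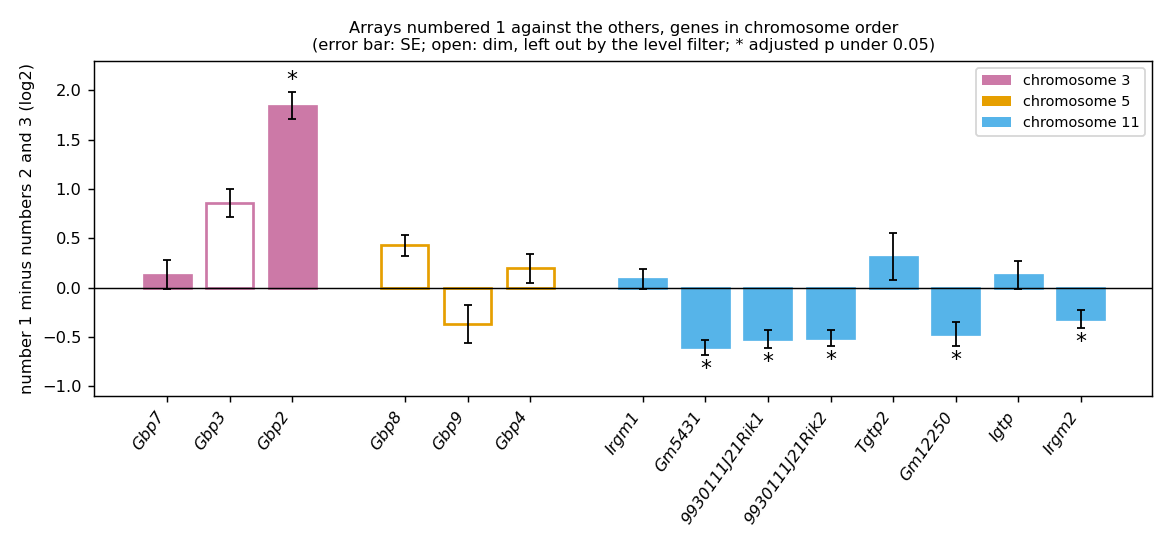
Difference in log2 level between arrays titled 1 and those titled 2 and 3 (y axis; bars give the limma estimate, error bars its SE) for members and related genes in their RefSeq order on chromosomes 3, 5 and 11; open bars are dim genes that the level filter left out, and asterisks mark an adjusted p under 0.05. The asterisks come from the fit with that filter, which Gbp2 passed only through the arrays titled 1. Gbp2 stands at 1.85 on chromosome 3, and the 5 bars marked on chromosome 11 all lie below 0.

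Upstream regulators were mixed by title number. Of 14 tested genes of the interferon gamma receptor and its signalling, 3 were higher and 4 lower on arrays titled 1 (21.4% and 28.6%, against 11% and 22.1% of all genes). Irf1, the transcription factor that drives much of the family, was lower by -0.89 ± 0.10, while Gbp2 was higher. Stat2 (-0.85 ± 0.10) and Irf9 (-0.66 ± 0.11), partners in the complex that type I interferon activates, were lower, and so was the phosphatase Ptpn6 (-0.43 ± 0.08). The kinase Jak2 (0.74 ± 0.11), the feedback inhibitor Socs1 (0.53 ± 0.09) and Batf2 (0.32 ± 0.09) were higher. Socs1, Ptpn6 and Batf2 are named because they complete the count, after their values were seen. Centred or quantile-normalized arrays gave 4 higher and 4 lower. Ifngr1 (-0.06 ± 0.11), Ifngr2 (0.24 ± 0.09), Jak1 (0.01 ± 0.07) and Irf8 (0.22 ± 0.14) were not called. Between groups 0 of the 14 were called, with 0 at an unadjusted p under 0.05. Irf1 differed from vehicle by 0.10 ± 0.36 with LCN2 from day 7 and by -0.06 ± 0.36 with LCN2 from day 0, and Stat2 by -0.02 ± 0.34 and -0.37 ± 0.34.

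Type I interferon response genes mostly had the direction of Irgm2, not that of Gbp2. On arrays titled 1, 19 of 20 lay below 0, as did 59.1% of all genes, with a median of -0.38. Of the 20, 11 were called lower and 0 higher (55% and 0%, against 22.1% and 11% of all genes). With arrays centred 8 were called lower, against 15.2% of all genes, and with quantile normalization 9, against 16.7%. Irf7, the factor that amplifies type I interferon production, was lower by -1.61 ± 0.14, the RNA-sensing enzyme Oas2 by -0.79 ± 0.16, the antiviral GTPase Mx1 by -0.75 ± 0.15 and the RNA sensor Ddx58 by -0.65 ± 0.09. Other interferon gamma response genes gave 3 higher and 2 lower of 13 tested (23.1% and 15.4%, against 11% and 22.1% of all genes), so calls of lower were no more frequent than over all genes. The Fc receptor Fcgr1 (-0.98 ± 0.08) and the tRNA synthetase Wars (-0.56 ± 0.09) were lower, and the checkpoint ligand Cd274 (0.73 ± 0.13) and the oxidase subunit Cybb (0.42 ± 0.08) higher. Set against vehicle, LCN2 gave 0 calls in these lists. Ciita, the regulator of MHC class II genes, differed by -0.43 ± 0.19 with LCN2 from day 0 (limma, unadjusted p = 0.0474) and by -0.16 ± 0.19 with LCN2 from day 7. The immunoproteasome subunit Psmb9 differed by -0.30 ± 0.12 with LCN2 from day 0. With LCN2 from day 0, the type I response genes were below 0 in 20 of 20 cases (median -0.19), against 54.8% of all genes (median -0.015). Of the 20, 4 had a limma unadjusted p under 0.05, against 1.41% of all genes. The largest differences were in Rsad2 (-0.72 ± 0.23), Ifit3 (-0.58 ± 0.18), Cmpk2 (-0.51 ± 0.21) and Zbp1 (-0.47 ± 0.14). With LCN2 from day 7, 18 of 20 were below 0 (median -0.24), against 49.1% of all genes (median 0.0025). At a limma unadjusted p under 0.05 there were 3 of the 20, against 0.697% of all genes. The lowest differences were in Ifit3 (-0.54 ± 0.18) and Zbp1 (-0.49 ± 0.14).

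**Figure D4:**
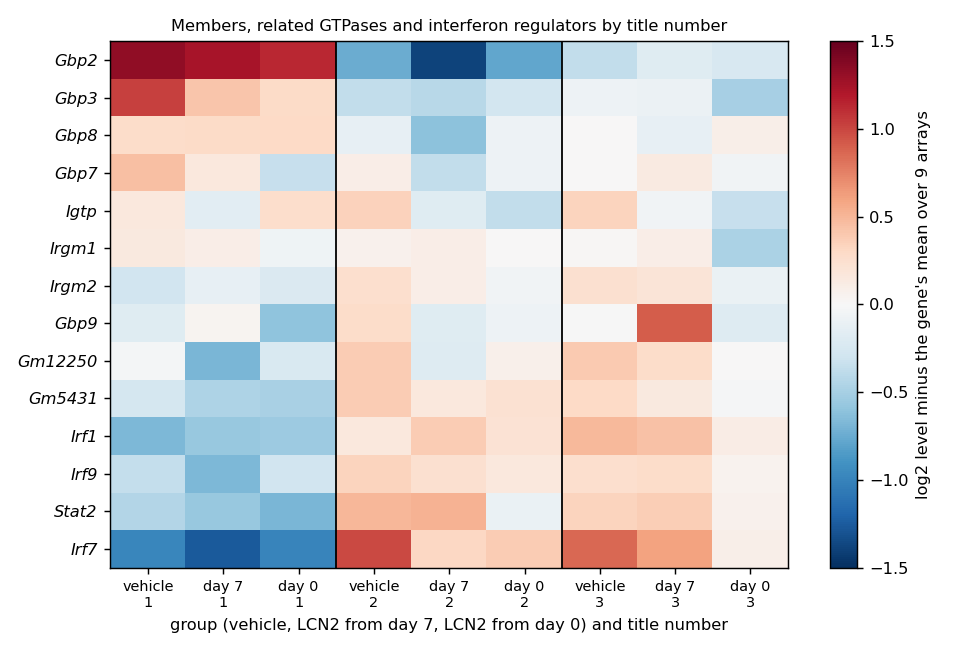
Log2 level minus each gene's mean over the 9 arrays (colour scale, red higher and blue lower) for members, related GTPases and interferon regulators (rows), with arrays ordered by title number and then group (columns). Gbp2, Gbp3 and Gbp8 are red on the 3 arrays titled 1, where Irf1, Irf9, Stat2 and Irf7 are blue. The regulators drawn are a selection, and Jak2, Socs1 and Batf2, which were called higher on those arrays, are not shown.

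The machinery that works with these GTPases was also measured. The ubiquitin-like conjugation system places them on vacuoles. Of its 15 tested genes, 5 were higher and 2 lower on arrays titled 1, led by the membrane tags Map1lc3a (0.96 ± 0.13) and Gabarapl1 (0.79 ± 0.10), the cargo receptor Sqstm1 (0.40 ± 0.10) and the conjugating enzyme Atg7 (0.40 ± 0.08). Of 12 inflammasome partners, 1 was higher, Naip2, a sensor of bacterial secretion systems (0.46 ± 0.08), and 2 lower, the sensor Nlrp3 (-0.56 ± 0.15) and the adaptor Pycard (-0.25 ± 0.08). With 11% of all genes higher and 22.1% lower, these 3 calls are no more than the share over all genes. LCN2 on either schedule gave 0 calls in both lists, with 0 genes at an unadjusted p under 0.05.

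Markers of other cell states moved with the title number as well. On arrays titled 1, 17 of 19 cell cycle genes, 6 of 7 neutrophil markers and 4 of 6 monocyte markers were lower, and 1 monocyte marker was higher, beside 22.1% of all genes lower and 11% higher. The higher one was Chil3 (mean 12.51 on arrays titled 1, 11.07 and 10.93 on those titled 2 and 3), which is also counted among the IL-4 targets. Of 14 IL-4 target genes 5 were higher and 3 lower, of 7 macrophage markers 3 and 1, and of 3 dendritic cell markers 2 and 0. The mean level of the 9 neutrophil markers with a probe set was 5.69 to 6.38 on arrays titled 1 and 7.08 to 7.54 on the others, and that of 19 cell cycle genes 8.16 to 8.74 and 9.12 to 9.44. The 7 monocyte markers, Chil3 included, averaged 6.63 to 6.86 and 7.27 to 7.62. Natural killer and T cell markers averaged 4.40 to 4.61 on arrays titled 1 and 4.21 to 4.26 on the others. Against vehicle, limma called 0 of these markers with LCN2 on either schedule. Neutrophil markers lay above 0 in 7 of 7 cases with LCN2 from day 7 (median 0.45) and from day 0 (0.45), monocyte markers in 4 and 5 of 6 (0.16 and 0.26) and cell cycle genes in 16 and 12 of 19 (0.15 and 0.073). The part of these in the differences of the members, by title number or by group, was not tested.

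Across the 9 arrays the members did not vary as 1 unit. Gbp2 correlated with Gbp8 at r = 0.90 and with Gbp3 at 0.88 on the levels as deposited, and with Irgm2 at -0.73. With the mean of each title number subtracted, Gbp2 and Gbp8 stood at 0.84, Gbp2 and Gbp3 at 0.28, and Gbp2 and Irgm2 at -0.07. Igtp and Irgm2, whose promoters share the stretch printed above, stood at 0.24 before and 0.70 after, and Irgm1 and Irgm2 at 0.19 and 0.70. Gbp2 and Igtp correlated at 0.25 and 0.05. These are descriptions over 9 arrays that share groups and title numbers. The genes whose profile was most like the mean of the tested members were Rnf139 (r = 0.98), Oaf (0.98), Usp30 (0.97), Lgmn (0.97) and Bcorl1 (0.96), and 4.39% of tested genes had r above 0.8. That mean was not scaled and holds Gbp2, which passed the filter only through the arrays titled 1. The SD of Gbp2 over the 9 arrays was 0.99, against 0.19 to 0.28 for the other tested members. On the levels as deposited the mean therefore follows Gbp2 most, and likeness to it is not likeness to the family. With the title-number means subtracted the most alike genes were Oaf, Adgrg6 and Bcorl1 (each 0.98) and Cers6 and Rab11fip1 (each 0.97), with 3.05% above 0.8.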

How the data were processed

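Per the submitters' processing notes, the arrays were processed with the oligo package and RMA, versions not given in the sources used here. The values the authors deposited are log2 levels with 0 missing, 22203 probe sets a sample over 9 samples, and they were used unaltered. RMA forces arrays to like distributions, which hides any change common to all genes. Array build and platform version are not given in the sources used here. Of the probe sets, 19572 carry 1 gene symbol, 0 several and 2631 none, from the platform annotation, and all 19505 gene names were matched by Entrez identifier to RefSeq on GRCm38.p6. The highest-mean probe set was kept for the 55 genes with more than 1. Genes with a mean below 5.66 were left out as dim.

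Differences were tested with limma 3.58.1 in R 4.3.3 (lmFit, eBayes) on all 9 arrays with 1 mean per group, and title numbers with group as a term. P-values were adjusted by Benjamini-Hochberg over all 10042 genes, at 0.05, in 6 comparisons. On simulated data the fitted differences lay on average within 0.05 of the simulated ones. A minimum share of recovered changes was required only of the fit with the title number as a block. No 2 arrays were identical. Every same-number correlation of deviations exceeded 0.1, the rule for treating title numbers as a pairing, but numbers 2 and 3 met it with each other too, and the pairing rests on the arrays titled 1.

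Members and lists were chosen with earlier results of these data known. All members are named; of other lists, up to 4 tested genes with the largest difference, and regulators named in advance. The number of arrays limits precision. Alternatives covered the block, filters, scaling, variance model, array weights, groups fitted and leaving out arrays.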

Additional observations from a re-analysis of the deposited data

How the results depend on the processing

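Of 541 member differences recomputed under up to 20 alternatives, 493 kept their direction and side of the threshold, 39 turned direction, 9 lost their call and 0 gained one. In the 4 group comparisons 0 members were called under every alternative run, the replicate block included. On arrays titled 1, 2 members, Gbp2 and Irgm2, were called in the filtered fit, which Gbp2 entered only through those arrays. The count was 1 with arrays centred, 1 with quantile normalization, 1 with a variance trend and 1 to 2 when leaving out 1 array. It was 0 with a stricter filter that kept 1 member among 5040 genes. The count of all genes called in the filtered fit was 1777 without the vehicle array titled 1. Without the filter Gbp2, Gbp3 and Gbp8 were called (limma, adjusted p = 0.000114, 0.00429 and 0.0318), and Irgm2 was not (limma, adjusted p = 0.0743). The turned differences were uncalled before and after, and their cause was not tested. With array weights, whose estimation stopped before its tolerance, Gbp2 became 0.29 (LCN2 day 7), 0.27 (day 0), 0.28 (both) and -0.021 (day 0 minus day 7), and numbers 2 minus 3 became 0.0090 for Gbp7 and 0.0094 for Irgm2. With quantile normalization Gbp2 became 0.0077 (day 7) and -0.021 (day 0 minus day 7), and Irgm2 0.023 (2 minus 3). With arrays centred Igtp became 0.013 (day 0 minus day 7) and Irgm2 0.013 (2 minus 3). Without the 3 arrays titled 1, Gbp2 became 0.049 (day 0) and Gbp7 0.051 (day 0 minus day 7).

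Leaving out 1 array moved Gbp2 between -0.86 and 0.45 (day 7), -0.58 and 0.59 (day 0), -0.52 and 0.52 (both) and -0.48 and 0.83 (day 0 minus day 7). It moved Igtp between -0.23 and 0.084 (day 0 minus day 7), -0.11 and 0.29 (number 1) and -0.18 and 0.065 (2 minus 3). Irgm1 ran from -0.0024 to 0.061 and Irgm2 from -0.19 to 0.083 (day 7), and for numbers 2 minus 3 Irgm2 from -0.078 to 0.031 and Gbp7 from -0.30 to 0.023.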
